A study of Rattus norvegicus with 7 samples.

Results

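Slc27a2, Prss40, Orai1, Cpne5 and Zfp646 are 5 genes of the rat testis whose array signal lay at distinct levels on different arrays of one small cadmium experiment. The genes had been selected on their signal on these 7 arrays, for a split into 2 levels described as not following the treatment groups. All probe sets that the array's annotation gives to one of these genes alone were taken, which made 6 probe sets out of the 20826 that name 1 gene, and 5 genes out of 14217. Cpne5 had 2 of them and each other gene had 1. Because the signals themselves chose the genes, their levels are a description and carry no test.

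The tissue was whole testis of adult male Sprague-Dawley rats, an outbred stock in which animals differ in genotype. Testes came from 3 untreated rats, 2 rats at 8 h and 2 rats at 20 h after a single intraperitoneal injection of cadmium chloride at 3 mg per kg body weight. The untreated rats stand for time 0 and had no injection, so the injection itself is part of both cadmium groups. Each array is read here as 1 animal, as the labels call the arrays biological replicates. RNA of a whole organ was measured, so fewer cells of a type and less RNA per cell cannot be told apart for any gene.

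The genes do unrelated work. Slc27a2 makes an acyl-CoA synthetase of the endoplasmic reticulum and peroxisomes that activates very-long-chain fatty acids and also aids fatty acid uptake; it is best known from liver and kidney. Prss40 is a trypsin-like serine protease of the male germ line, a gene family whose best known member, acrosin, sits in the acrosome of the sperm head. Orai1 is the pore subunit of the plasma membrane calcium channel that opens when Stim1 senses that the calcium store of the endoplasmic reticulum is empty. Cpne5 is a copine, one of a family of cytosolic proteins that bind phospholipid membranes when calcium rises. Zfp646 is a zinc finger protein of the nucleus. Cadmium harms the testis early through its blood vessels, and cells exposed to it are known to switch on metal, oxidative and heat stress genes.

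The deposited signals had been brought to one level, with a trimmed mean no higher than 250.2 and a median of 52.9 to 72.0 on the 7 arrays. According to the instrument's experiment files, untreated replicate 1 and 20 h replicate 1 were hybridized on day 1, untreated replicate 2 on day 2 and the other 4 arrays on day 3. Untreated replicate 2 also had another staining protocol, at 25 °C for 600 s where the others had 35 °C for 300 s, and its recorded sample type was mouse. The log2 ratio of actin signal at the 3′ over the 5′ end was 0.733 to 0.985 on days 1 and 2 and 1.191 to 1.422 on day 3. The tissue label held on every array: the 7 spermatid markers summed to between 82565 and 127622 and 7 Sertoli markers, of 9 listed, to between 10982 and 14012. Of 20857 probe sets kept by a filter on dim signals, 0.0% passed the limma test in any comparison at an adjusted p of 0.05. The number of arrays limits the precision of every value below.

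Slc27a2 (probe set 1368150_at) had the widest range of the 5 genes. Its signal was 369.6, 67.7 and 91.1 in untreated replicates 1 to 3, 825.8 and 1075.9 at 8 h, and 136.2 and 1079.3 at 20 h. Both 8 h arrays and 20 h replicate 2 were high, while 20 h replicate 1 lay among the untreated arrays. The untreated mean was 176.1 ± 168 (SD, n = 3), that of the 8 h group 950.9 ± 177 (SD, n = 2) and that of the 20 h group 607.8 ± 667 (SD, n = 2). Across all arrays the highest signal was 15.9 times the lowest.

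To find where a gene's arrays part, its values of log2(signal + 15) were put in order and the largest step between neighbouring arrays was taken as the gap. For Slc27a2 this gap was 1.35 and lay between 136.2 and 369.6, with 3 arrays below it and 4 above. A clean division into 2 levels was not seen: untreated replicate 1 stood apart from both the 3 lower and the 3 higher arrays. Without that array the gap was 2.48. Its 3 highest arrays were all cadmium arrays hybridized on day 3. The remaining day 3 array, untreated replicate 3, was the second lowest at 91.1. The part of the hybridization day in these levels was not tested.

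Prss40 (1384713_at) ran highest on the same arrays as Slc27a2. Signals were 1068.5, 407.1 and 400.5 in the untreated testes, 1362.2 and 1669.4 at 8 h, and 1170.9 and 1781.4 at 20 h. Untreated replicates 2 and 3 formed a low pair, and all 4 cadmium arrays lay above every untreated array. The gap of 1.36 ran from 407.1 up to 1068.5, a step of 2.62-fold, so untreated replicate 1 fell on the upper side with the cadmium arrays. The untreated mean of 625.4 ± 384 (SD, n = 3) compared with 1516 ± 217 (SD, n = 2) for the 8 h group and 1476 ± 432 (SD, n = 2) for the 20 h group.

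The description under which Prss40 was picked therefore does not cover it fully, since its order of arrays did separate untreated from cadmium. Of the probe sets kept, 1.82% had all 4 cadmium arrays above all untreated arrays. Slc27a2, Prss40 and Cpne5 had both 8 h arrays above the untreated ones, where 7.59% of probe sets did. At 20 h it was Prss40 alone, beside 4.65%. These contrasts belong to the choice of the genes, and nothing is read from the counts.

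**Figure D1:**
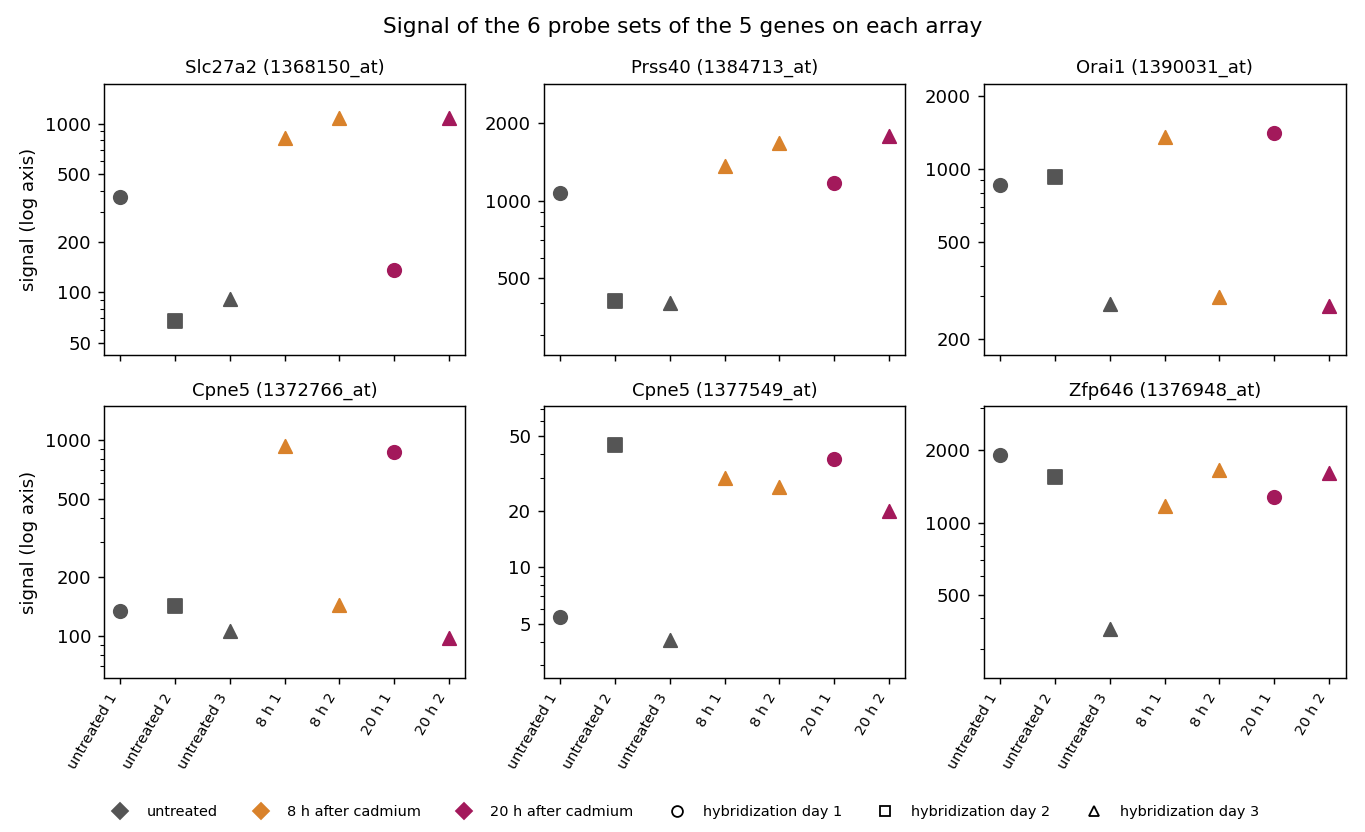
Signal (log axis) of the 6 probe sets on each of the 7 arrays, with treatment as colour and hybridization day as marker shape. Slc27a2 spans 67.7 to 1079.3, the lowest 2 Prss40 arrays are both untreated, the 3 low Orai1 arrays are all of day 3, and the 2 high arrays of Cpne5 probe set 1372766_at are both cadmium arrays.

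The upstream sequences of Slc27a2 and Prss40 are shown because their signals ran highest on the same 3 arrays. They are the RefSeq windows of the GRCr8 build, from 250 bases before to 50 bases after the annotated start of the gene, written 5′ to 3′ along the gene. Slc27a2 lies on the plus strand at chr3:134257851-134258150 and Prss40 on the minus strand at chr9:44266844-44267143. Capitals mark matches to the motifs named after the sequences.
Slc27a2: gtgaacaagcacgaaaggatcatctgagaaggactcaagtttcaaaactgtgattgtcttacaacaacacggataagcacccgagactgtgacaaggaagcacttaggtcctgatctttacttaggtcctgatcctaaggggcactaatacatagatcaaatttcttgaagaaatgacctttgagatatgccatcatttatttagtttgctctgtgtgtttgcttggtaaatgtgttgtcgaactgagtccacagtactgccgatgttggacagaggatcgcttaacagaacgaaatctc
Prss40: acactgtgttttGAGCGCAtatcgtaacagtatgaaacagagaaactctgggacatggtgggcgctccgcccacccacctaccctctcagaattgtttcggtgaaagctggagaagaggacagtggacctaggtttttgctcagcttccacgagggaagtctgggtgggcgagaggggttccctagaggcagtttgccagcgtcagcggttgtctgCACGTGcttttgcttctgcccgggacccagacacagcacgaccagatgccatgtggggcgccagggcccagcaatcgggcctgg

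Motifs of metal, oxidative, heat, hypoxic, cyclic AMP, C/EBP and PPAR response were searched for on both strands, and were chosen after the signals had been seen. The Slc27a2 window had 41.7% G and C and 7 CpG pairs, and held none of these letters. In the Prss40 window, with 58.0% G and C, the first form of the metal response core TGCGCNC matched once on the opposite strand at position -238 from the start. The hypoxia response core ACGTG matched on both strands at -34 and -33, where the matches overlap. Of 33469 RefSeq promoter windows of that length, 14.1% held TGCGCNC and 19.3% held ACGTG. The median window had 51.7% G and C. The pair thus shared no match.

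Orai1 (1390031_at) fell into 2 groups of arrays that cut across treatment. Its signal was 862.5, 925.9 and 279.9 in the untreated testes, 1364.6 and 297.4 at 8 h, and 1409.3 and 274.0 at 20 h. Each group held 1 low array and at least 1 high one. The 3 low arrays lay close together between 274.0 and 297.4, and the 4 high arrays spread from 862.5 to 1409.3. The gap was 1.49, or 2.9-fold. All 3 low arrays were hybridized on day 3, as was the high 8 h replicate 1, and none of the arrays of days 1 and 2 was low. For this gene the description of 2 levels that do not follow treatment held, and the part of the hybridization day in it was not tested.

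Within the high arrays, the 2 untreated ones were at 862.5 and 925.9 and the 2 cadmium ones at 1364.6 and 1409.3. The 3 low arrays had no such order, with 274.0 at 20 h, 279.9 untreated and 297.4 at 8 h. As these signals chose the gene, nothing is read from either order.

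Cpne5 (1372766_at) had the sharpest step of the 5 genes. Signals were 134.2, 142.4 and 106.3 in the untreated testes, 929.4 and 144.6 at 8 h, and 864.9 and 97.5 at 20 h. The 5 low arrays kept between 97.5 and 144.6, and 8 h replicate 1 and 20 h replicate 1 stood 5.98-fold above them at the gap of 2.46. The untreated arrays varied little, at 127.6 ± 18.9 (SD, n = 3), while 1 rat of each cadmium group was high. The 8 h group had a mean of 537 ± 555 (SD, n = 2) and the 20 h group one of 481.2 ± 543 (SD, n = 2). The 2 high arrays were of different days, 3 and 1.

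No untreated testis had the high Cpne5 level, so these data do not show it as a level that occurs without cadmium. With 3 untreated rats, a level that occurs in some animals and one that occurs in some cadmium-treated animals cannot be told apart. The second Cpne5 probe set (1377549_at) did not pass the filter on dim signals. It read 5.4, 45.0 and 4.1 untreated, 29.9 and 26.6 at 8 h, and 37.7 and 20.0 at 20 h. Its highest array was untreated replicate 2, so the probe sets of Cpne5 disagreed on the order of the arrays.

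Both high Cpne5 arrays were also the high pair among the cadmium arrays for Orai1. The windows of these genes are shown for that reason: Cpne5 on the minus strand at chr20:7290547-7290846 and Orai1 on the minus strand at chr12:39208981-39209280, from the same RefSeq table and with capitals as before.
Cpne5: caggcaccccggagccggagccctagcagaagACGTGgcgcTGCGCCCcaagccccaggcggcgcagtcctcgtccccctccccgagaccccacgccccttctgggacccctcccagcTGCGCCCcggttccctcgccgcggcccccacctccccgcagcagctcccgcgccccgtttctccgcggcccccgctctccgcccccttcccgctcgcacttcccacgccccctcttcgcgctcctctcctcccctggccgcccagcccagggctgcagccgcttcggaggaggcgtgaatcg
Orai1: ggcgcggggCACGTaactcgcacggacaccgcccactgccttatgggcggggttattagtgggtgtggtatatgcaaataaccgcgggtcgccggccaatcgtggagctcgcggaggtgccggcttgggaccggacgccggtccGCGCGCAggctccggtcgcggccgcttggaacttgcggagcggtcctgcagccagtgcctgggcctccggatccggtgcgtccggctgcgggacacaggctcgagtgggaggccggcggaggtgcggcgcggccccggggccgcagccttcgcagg

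Both windows were rich in G and C, at 76.3% for Cpne5 and 72.3% for Orai1, where the 90th percentile of all windows was 68.7%. They held 33 and 41 CpG pairs. The letters TGCGCNC occurred in Cpne5 at -209 and -132 and in Orai1, on the opposite strand, at -106. ACGTG occurred at -218 in Cpne5 and, on the opposite strand, at -241 in Orai1. Both motifs were also in the Prss40 window, whose arrays ordered differently. A match is a string of letters and not a measured binding site.

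Zfp646 (1376948_at) was set apart by 1 array. Signals were 1902.3, 1552.0 and 362.2 in the untreated testes, 1173.7 and 1653.9 at 8 h, and 1275.1 and 1605.3 at 20 h. Untreated replicate 3 stood below the other 6 arrays, which ran from 1173.7 to 1902.3, with a gap of 1.66 or 3.24-fold. Without that array the largest gap was 0.28, near the 0.30 that was the median of all probe sets. The lower level of Zfp646 thus rests on 1 animal. The other 3 arrays of day 3 were all high. Its RefSeq window on GRCr8 held the heat shock core GAANNTTC at position 41 after the start, letters found in 8.59% of windows.

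Steps of this size were uncommon on the array. The genes were picked for 2 distinct levels, so their place among all probe sets restates that choice. Over the 20857 probe sets kept, the gap had a median of 0.30, a 95th percentile of 0.89, a 99th percentile of 1.31 and a maximum of 5.34. A gap at least as large was seen in 183 probe sets (0.877%) for Slc27a2, 174 (0.834%) for Prss40, 107 (0.513%) for Orai1, 71 (0.34%) for Zfp646 and 14 (0.0671%) for Cpne5. All 5 genes were within the 222 probe sets (1.06%) with a gap of 1.3 or more, a limit set after the values were seen. A stricter rule asked for a gap of at least 2, at least 2 arrays on each side and a division that does not run between whole groups. It took 8 probe sets (0.0384%), and Cpne5 was the one gene of the 5 among them. Of the other 4 genes, Zfp646 had the next largest gap, 1.66 with 1 array on its lower side, and then Orai1 with 1.49; at a limit of 1.5 the rule took 23 probe sets and still Cpne5 alone of the 5.

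**Figure D2:**
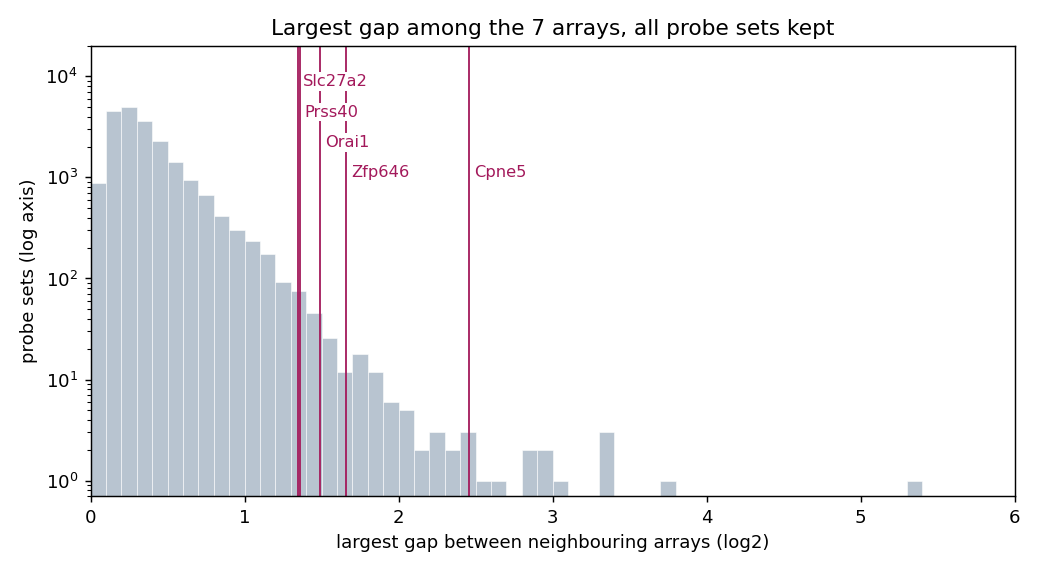
Number of probe sets (log axis) by the largest gap between neighbouring arrays, in log2(signal + 15), for the 20857 probe sets kept; lines mark the 5 genes. Most probe sets lie near the median of 0.30, and the genes lie between 1.35 for Slc27a2 and 2.46 for Cpne5.

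Fitted treatment differences describe the same signals that chose the genes, and their size against their error is fixed in part by that choice. The limma fit gave Orai1 a log2 difference of 0.07 ± 0.78 (SE) at 8 h and 0.04 ± 0.78 (SE) at 20 h against untreated. For Zfp646 it was 0.43 ± 0.56 (SE) and 0.47 ± 0.56 (SE). Cpne5 had 1.45 ± 0.84 (SE) at 8 h and 1.15 ± 0.84 (SE) at 20 h, values that average a high and a low rat in each group.

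The largest fitted difference was that of Slc27a2 at 8 h, 2.67 ± 0.80 (SE) on the log2 scale, with 1.44 ± 0.80 (SE) at 20 h. Prss40 had 1.41 ± 0.38 (SE) and 1.34 ± 0.38 (SE). Between 20 h and 8 h the fitted differences ran from -1.24 ± 0.87 (SE) for Slc27a2 to 0.04 ± 0.62 (SE) for Zfp646. The comparisons at 8 h and 20 h share the 3 untreated arrays.

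Setting each cadmium array against the untreated array of its own day gave another view, though each day had 1 untreated rat at most. On day 3 Slc27a2 was 9.06, 11.8 and 11.8 times its untreated level on 8 h replicate 1, 8 h replicate 2 and 20 h replicate 2. On day 1, by contrast, 20 h replicate 1 was at 0.369 of untreated replicate 1. Prss40 went 3.40-, 4.17- and 4.45-fold on day 3 and 1.10-fold on day 1. For both genes the direction or the size of the cadmium difference thus changed with the day and its untreated rat.

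Cpne5 was 8.74-fold in 8 h replicate 1 and 6.44-fold in 20 h replicate 1, each against its own day, and 1.36- and 0.917-fold on the other 2 cadmium arrays. Its high level was therefore seen within both days that could be compared. Orai1 was 4.88-fold on 8 h replicate 1, 1.63-fold on 20 h replicate 1, and 1.06- and 0.979-fold on the other arrays. Zfp646 was 3.24- to 4.57-fold on day 3, where the untreated rat was the low one, and 0.67-fold on day 1.

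**Figure D3:**
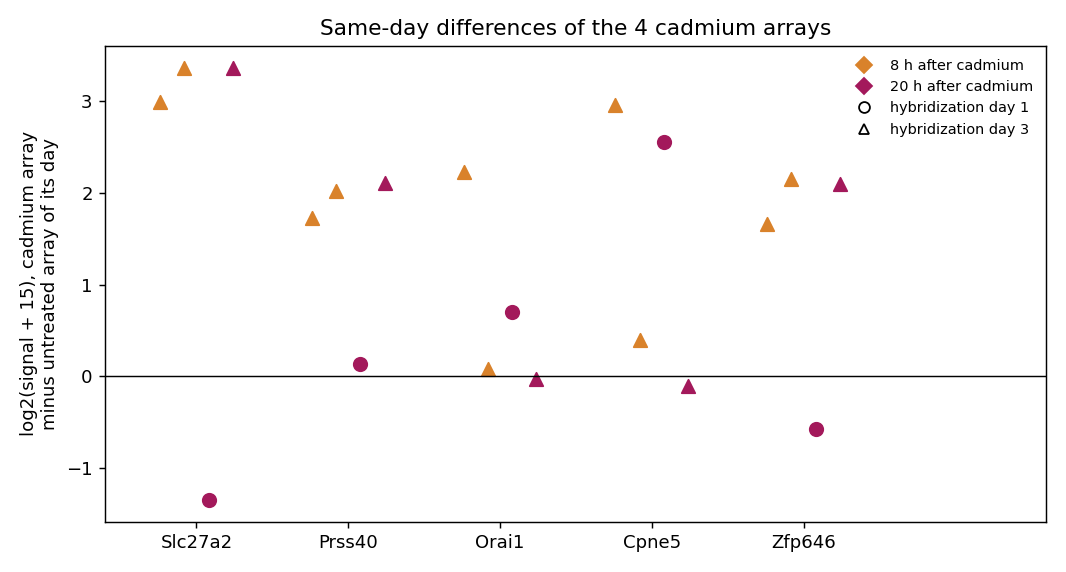
Difference in log2(signal + 15) between each of the 4 cadmium arrays and the untreated array of the same hybridization day, for the 5 genes. Cpne5 is high on 1 array of each day (2.96 and 2.56), while Slc27a2 runs from 2.99 to 3.37 on day 3 and to -1.35 on day 1.

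Between the genes, likeness was measured as the root mean square difference of their centred log2 values over the 7 arrays, where 0 is an identical pattern. The values were not scaled to one spread, so the size of a gene's range counts as well as the order of its arrays. Prss40 and Zfp646 were the closest at 0.72, followed by Orai1 and Cpne5 at 0.77 and Slc27a2 and Prss40 at 0.85. Slc27a2 and Orai1 were the farthest apart at 2.00. The 5 genes thus did not share one division of the animals. Untreated replicate 3 was low for Prss40, Orai1 and Zfp646 and second lowest for Slc27a2 and Cpne5. In contrast, 20 h replicate 2 was the highest array for Slc27a2 and Prss40 and the lowest for Orai1 and Cpne5.

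Genes of like pattern were picked from all named probe sets kept by this measure, so the arrays they share with a gene are what selected them. The closest to Cpne5 were Apoc2, Slc7a11 and Nr4a3, at 0.30, 0.55 and 0.59. Apoc2, the protein cofactor of lipoprotein lipase, read 3.5, 3.7 and 10.9 untreated, 117.6 and 14.1 at 8 h, and 90.1 and 2.9 at 20 h. Slc7a11, the cystine transporter that feeds glutathione synthesis, read 194.8, 322.8 and 240.1, then 671.4 and 190.5, then 748.6 and 170.1. Both were high on the same 2 arrays as Cpne5. Nr4a3, an orphan nuclear receptor, was dim, from 1.5 to 88.1. Among probe sets that reached a signal of 200 on some array, the order was Slc7a11, Hmox1 and Cebpd.

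Hmox1, the heme oxygenase induced by oxidative and metal stress, reached 613.5 in the high 8 h testis and 1604.7 in the high 20 h testis, and 217.2 to 396.0 on the other 5 arrays. The same 2 arrays were the low ones for blood vessel markers in sum. The 6 endothelial genes with a probe set, of 7 listed, summed to 221.4 and 158.9 there and to between 464.8 and 576.4 on the other 5. Cldn5, the brightest on those 5, read 62.7 and 52.5 there and 231.9 to 252.9 elsewhere. Kdr, Emcn and Tek were also lowest on these 2 arrays, though Tek at 75.5 on 8 h replicate 1 was near 81.6 on 20 h replicate 2. The list was not uniform. Vwf was lower on 8 h replicate 2 than on 8 h replicate 1, and the dim Pecam1 was lowest on untreated replicate 3, at 5.2. The Cpne5 step thus fell on the same 2 arrays as the Hmox1 rise and the low endothelial sum. Leydig cell markers did not go with it, being highest in sum on 8 h replicate 1 (10984) and lowest on 20 h replicate 1 (2468.8). The part of any of these shifts in the Cpne5 step was not tested.

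**Figure D4:**
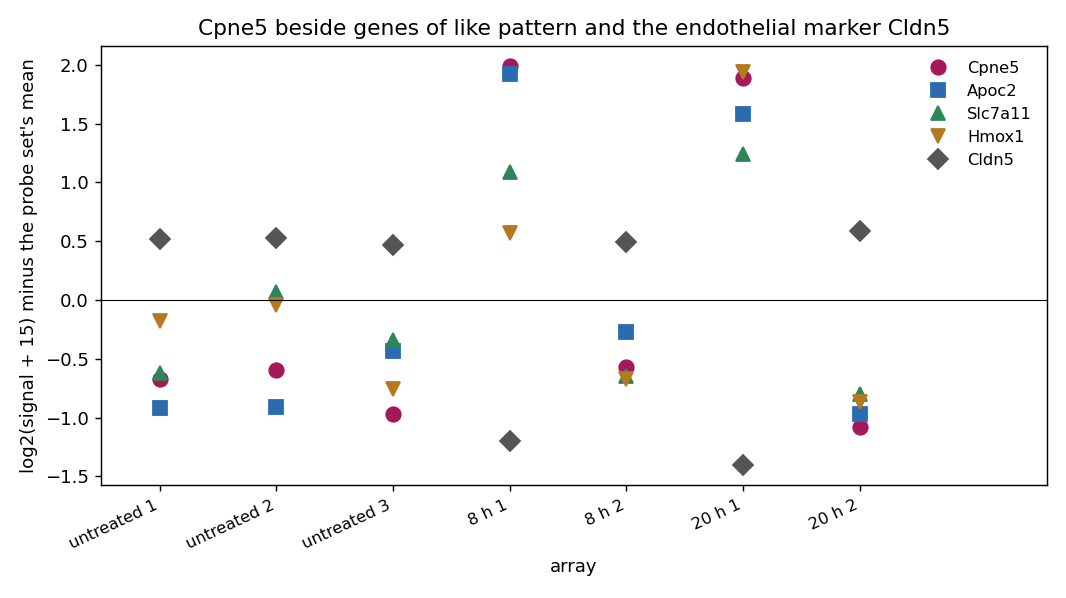
Log2(signal + 15) minus the probe set's mean over the 7 arrays, for Cpne5 (1372766_at), Apoc2, Slc7a11, Hmox1 and the endothelial marker Cldn5. On 8 h replicate 1 and 20 h replicate 1 the first 4 genes are above 0 and Cldn5 is below it; on the remaining arrays Cpne5 stays below 0 and Cldn5 above.

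For Orai1 the closest named genes were Mgarp (0.35), Mafg (0.37) and St3gal4 (0.37). Mafg is a small Maf protein that pairs with stress-responsive transcription factors, and St3gal4 is a sialyltransferase. St3gal4 read 96.3, 87.0 and 23.6 untreated, 92.0 and 12.1 at 8 h, and 221.3 and 28.4 at 20 h, low on the same 3 arrays as Orai1. Mgarp and Mafg did not exceed 104.2 on any array. The brighter neighbours in pattern were St3gal4, RT1-CE10 (0.47), a class I histocompatibility gene, and Srxn1 (0.51), which restores oxidized peroxiredoxins.

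Prss40 was closest to Cds2 (0.27), Pax8 (0.44) and Pex5l (0.44), all dim, with highest signals of 56.7, 61.2 and 68.5. Among brighter probe sets Zcchc9 (0.45), Gpbp1 (0.48) and Spp1 (0.49) came first. Gpbp1 was 675.6 and 736.9 on untreated replicates 2 and 3 and between 1217.7 and 1317.6 on the other 5 arrays, which is the same division as that of Prss40. By this measure, in which its wide range counts, Slc27a2 had no close match. Prss40 led at 0.85, then Nqo2, a quinone reductase, at 0.94 and C2h3orf80 at 0.95. A probe set without a gene name (1377133_at) was closer, at 0.54. It read 168.1, 166.1 and 156.5 on the 3 high arrays of Slc27a2 and 11.2 to 21.9 on the rest.

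The closest to Zfp646 were Kat6a (0.16), a histone acetyltransferase, Zfp763 (0.16) and Hspa12b (0.22). All 3 were dim, and on untreated replicate 3 they read 5.2, 0.7 and 3.4, against 27.0 to 74.3 on the other arrays. Brighter ones were Cep290 (0.32), a protein of the ciliary transition zone, Mrpl50 (0.34), a subunit of the mitochondrial ribosome, and Prss36 (0.35). Cep290 was 75.8 on untreated replicate 3 and 134.6 to 226.3 elsewhere.

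Relatives and partners of each gene were taken from lists, whatever their signal, and their gaps and treatment differences were read. The limma test compares treatment groups, so it cannot show whether a split that cuts across them was shared. Over all probe sets kept, 0.0% passed it after adjustment. The lists came to 48 genes with 68 probe sets kept. None of these passed the limma test after adjustment over all probe sets: the lowest adjusted p was 0.84 at 8 h, 1.0 at 20 h and 1.0 between 20 h and 8 h. At an unadjusted p of 0.05 there were 2 higher and 4 lower at 8 h, where 5.22% of all probe sets passed that limit (1.16% higher, 4.06% lower). At 20 h there were 0 higher and 8 lower, where 3.11% of all probe sets passed (0.767% higher, 2.34% lower). Between the times 1 was higher and 1 lower, where 1.92% of all passed (1.22% higher, 0.7% lower). The F test over the 3 groups had 3.02% of all probe sets under that limit.

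The fatty acid list holds the other transport proteins of the Slc27a family, the acyl-CoA synthetases and the peroxisomal oxidation enzymes. Of its 24 genes, 19 had a probe set and 18 were kept, as 24 probe sets. At 8 h 7 of these were above and 17 below untreated, with a median log2 difference of -0.11 beside -0.08 over all probe sets. Quantile normalization and scaling to one 75th percentile both gave 11 above and 13 below, with medians of -0.08 and -0.01, and the day in the fit gave 5 and 19 with -0.22. At 20 h it was 5 and 19, with a median of -0.19 beside -0.05. Their median gap was 0.28, close to the 0.30 of all probe sets.

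Slc27a4, another fatty acid transporter and acyl-CoA synthetase of the family, ran the opposite way on these arrays. It read 133.6, 164.7 and 148.5 untreated, 20.6 and 45.3 at 8 h, and 114.9 and 8.7 at 20 h. Its 3 low arrays were the 3 high arrays of Slc27a2. The log2 difference was -1.82 ± 0.59 (SE) at 8 h, with an unadjusted p of 0.012 and an adjusted p of 0.84 in limma, and -1.56 ± 0.59 (SE) at 20 h, adjusted p 1.0. The 20 h value was -0.33 without 20 h replicate 2 and -2.79 without 20 h replicate 1. Abcd2, a peroxisomal importer of very-long-chain acyl-CoA, had the largest gap of the list, 1.13, from a single low array (12.7 on 20 h replicate 1).

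The store-operated calcium entry list kept 15 of 22 genes, as 25 probe sets. At 8 h 7 were above and 18 below untreated, with a median of -0.27 beside -0.08 over all probe sets. At 20 h 5 were above and 20 below, with a median of -0.20 beside -0.05. With the hybridization day in the fit the 8 h median was -0.04 and the 20 h median -0.21. The other Orai channels did not show the 2 levels of Orai1: Orai3 read 91.0, 85.4 and 64.0, then 67.3 and 53.9, then 23.2 and 53.6, and the 2 probe sets of Orai2 kept to between 21.5 and 87.1.

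Stim1, the calcium sensor that opens Orai1, had 3 probe sets. The brightest (1376024_at) read 912.9, 1074.8 and 693.1 untreated, 667.0 and 763.9 at 8 h, and 751.6 and 724.3 at 20 h, a range of 1.61-fold where Orai1 had 5.14-fold. Itpr3, an inositol trisphosphate receptor that releases store calcium, read 94.9, 74.5 and 86.5, then 32.8 and 33.7, then 58.9 and 20.6. Its log2 difference was -1.05 ± 0.35 (SE) at 8 h, adjusted p 0.84 in limma. The gap of Itpr3 was 0.60, against 1.49 for Orai1. Atp2b4 (1370602_at) had the largest gap of the list, 1.04, a size reached by 2.94% of all probe sets kept. It read 228.4, 188.6 and 68.6 untreated, 79.9 and 81.4 at 8 h, and 183.1 and 56.0 at 20 h. Its 4 low arrays were those of day 3, among them the 3 low arrays of Orai1. The part of the hybridization day in this split was not tested.

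Of the testicular serine proteases and their partners, 8 of 20 genes had a probe set and 7 were kept, with 1 each. At 8 h 6 were above and 1 below untreated, with a median of 0.17. That median was 0.04 after quantile normalization, with 5 above and 2 below, 0.08 with the day in the fit and 0.28 after scaling to one 75th percentile. At 20 h the split of 5 above and 2 below became 3 and 4 after quantile normalization. Prss37, a protease-like protein of spermatids that is needed for male fertility, read 4193.2, 3281.3 and 4315.5, then 5359.4 and 8236.3, then 4415.3 and 7330.5, with 0.77 ± 0.25 (SE) at 8 h, adjusted p 0.84 in limma. Without 8 h replicate 2 that difference was 0.46. Its 3 highest arrays on this probe set (1398684_s_at) were those of Slc27a2 and Prss40. The Prss37 probe sets 1386822_s_at and 1394368_x_at did not pass the filter on dim signals and did not have this order. They were highest on 20 h replicate 1 (49.1) and on untreated replicate 3 (32.2). The highest gap of this list was 0.45, against 1.36 for Prss40, and acrosin (Acr) varied 1.44-fold over all arrays.

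Of the copines, 7 of 8 had a probe set but 3 were kept, with 4 probe sets, so little can be said of the family. Cpne7 read 171.3, 83.4 and 95.0 untreated, 76.7 and 19.1 at 8 h, and 80.3 and 76.4 at 20 h. Its gap of 1.42 came from the low 8 h replicate 2, an array on which Cpne5 was also low. Cpne8 (1374474_at) was high on untreated replicate 2 alone, at 526.1 against 145.6 to 251.5. None of the 3 had the array pattern of Cpne5. The zinc finger list kept 5 of 8 genes and 8 probe sets, with a median gap of 0.18 and a largest gap of 0.81 (Zfp629).

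The genes next to each of the 5 along the chromosome were read as well, as the nearest 3 on each side that had a probe set kept. Order was taken from RefSeq. These 30 genes and 40 probe sets had gaps from 0.10 to 0.73, all below the 1.35 of Slc27a2. None passed limma's adjusted p of 0.05 in any comparison, nor did any other probe set kept (0.0%). At an unadjusted p of 0.05 there were 2 of the 40 at 8 h, where 5.22% of all probe sets passed that limit. They were 1 probe set of Usp8, beside Slc27a2, and 1 of Pi16, beside Cpne5. The other probe sets of these genes did not pass it. At 20 h and between the times there were 0, where 3.11% and 1.92% of all passed. Pi16 (1372640_at) read 140.6, 174.3 and 98.0 untreated, 61.3 and 75.6 at 8 h, and 109.9 and 55.7 at 20 h, an order unlike that of Cpne5. Prss39, a protease gene beside Prss40, had no probe set that named it, and whether the Prss40 probes also read it was not tested.

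**Figure D5:**
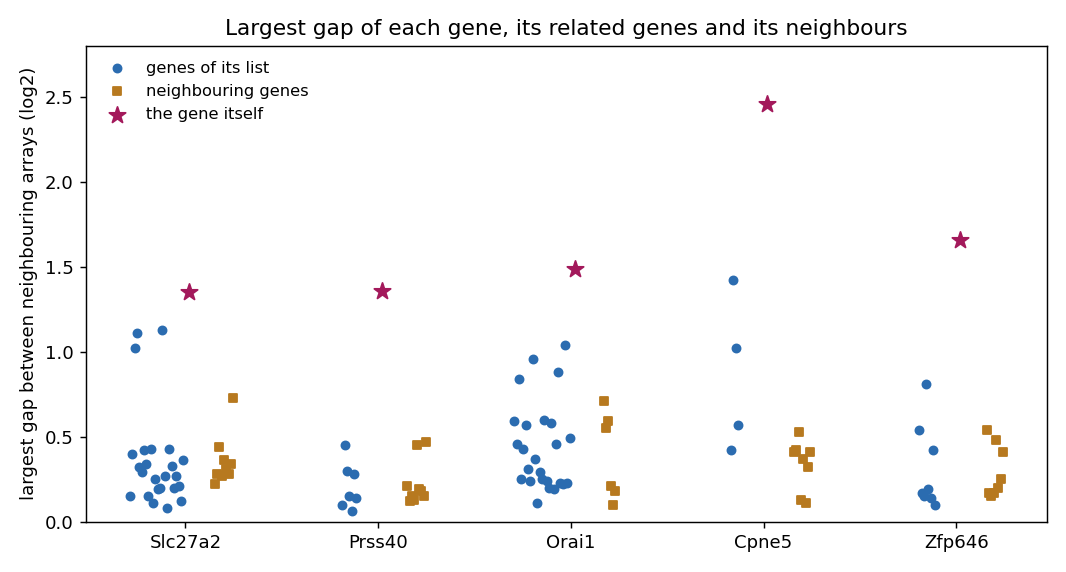
Largest gap between neighbouring arrays, in log2(signal + 15), for each of the 5 genes (stars), the genes of its list (circles) and the neighbouring genes along the chromosome (squares). Neighbours reach 0.73 and list genes 1.42 (Cpne7), and each of the 5 genes lies above both its own list and its own neighbours, as the choice of the genes for their gaps makes likely.

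Signals of marker genes, each gene by its brightest probe set, were summed for other cell types and tissues. As Slc27a2 is abundant in liver and kidney, 7 genes of those organs were summed: 273.3, 271.8 and 213.9 untreated, 256.7 and 197.7 at 8 h, and 223.6 and 150.4 at 20 h. Of the 7, Alb and Ttr passed the filter on dim signals, and no marker exceeded 92.7 (Ttr, untreated replicate 1). The 3 arrays with the highest Slc27a2 had sums of 256.7, 197.7 and 150.4, and the part of such tissue in the Slc27a2 level was not tested. Spermatid markers summed to 82565 to 90967 on days 1 and 2 and to 120662 to 127622 on day 3. The 3 arrays with the highest Slc27a2 and Prss40 were of day 3, but so was untreated replicate 3, with a sum of 126926 and low Slc27a2 and Prss40. The part of the spermatid shift in any of these levels was not tested.

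Spermatocyte markers (5 genes) summed to 30297 to 30651 on both 8 h arrays and 20 h replicate 2, the arrays on which Slc27a2 and Prss40 were highest, and to 23471 to 26996 on the other 4. Ldhc, the germ cell lactate dehydrogenase, made up the largest share of that sum. Ldhc and Smc1b were highest on those 3 arrays, while Sycp1 and Sycp3 were highest on untreated replicate 1 and Hspa2 on 20 h replicate 1. The part of these markers in the levels of Slc27a2 and Prss40 was not tested. Spermatogonial markers (4 genes) ran from 1223.3 to 1930.9 and peritubular ones (4 genes) from 1238.9 to 1572.6. Macrophage markers (5 genes) kept within 589.8 to 714.0 and fat markers (5 genes) within 134.3 to 238.8. Red cell genes, with 2 of 6 on the array, summed to 1509.6 to 3417.7, highest on 20 h replicate 1. The epididymal list, with 4 of 12 on the array, summed to 4125.3 to 5369.5, nearly all of it Cst8, which germ cells of the testis also make and which was highest on the same 3 arrays as Slc27a2.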

How the data were processed

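Total RNA of 7 rat testes had been hybridized to Affymetrix Rat230_2 arrays. The deposited values are signal intensities per probe set on a linear scale; per the series' design text the authors used MAS 5.0 and GeneSpring 7.2, and what GeneSpring did to these values is not given in the sources used here. Per the file headers, the deposited experiment files hold other information (hybridization day, protocol, sample type). The table's 31099 probe sets include 57 controls; of the other 31042, 20826 name 1 gene, 436 several and 9780 none, per the platform annotation. All value columns belonged to a sample (0 did not). Signals were taken as log2(signal + 15), where differences of dim probe sets are understated. A filter asked for a signal over the 40th percentile of an array in at least 2 arrays and left 20857, of which 15827 name 1 gene (11552 genes).

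Groups were compared with limma 3.58.1 in R 4.3.3 (lmFit, eBayes with intensity trend, Benjamini-Hochberg over all probe sets kept) on all 7 arrays, with no covariate. It was tested on simulated data. The labels do not tie arrays to litters or cages, so p-values measure the spread between these arrays. The text names every probe set of the 5 genes, members of 5 fixed lists of relatives and partners and of 12 marker lists, the 3 nearest measured neighbours on each side and the 3 named genes closest in pattern. The 5 genes, the lists and the limits were chosen with earlier results of these data known. Alternatives were other scalings, pseudocounts (1 and 50), filters, blocks for day and replicate number, and leaving out each array. Promoter windows and gene order came from RefSeq's GRCr8 tables; no build is named for the array files, so no gene coordinates are given for probe sets.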

Additional observations from a re-analysis of the deposited data

Results flagged for a closer look

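One probe set of Acsl1, an acyl-CoA synthetase of the fatty acid list, lay on different sides of the untreated arrays at the cadmium times. Its signal (1382887_at) was 86.7, 85.5 and 89.9 untreated, 47.1 and 68.0 at 8 h, and 94.1 and 92.8 at 20 h. Both 8 h arrays were thus below and both 20 h arrays above every untreated array, the latter by little. The fitted log2 difference from untreated was -0.51 ± 0.24 (SE) at 8 h and 0.08 ± 0.24 (SE) at 20 h. A rise at 20 h is therefore not shown. The share of all probe sets with such an order was not tested. The mean log2 value at 8 h minus that at 20 h was -0.60, and limma gave 20 h against 8 h an unadjusted p of 0.047 and an adjusted p of 1.0. The 2 brighter Acsl1 probe sets, at 1223.9 to 2218.6, did not have this order.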

How the results depend on the processing

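Of 405 recomputed values, 391 were taken as unchanged, 14 moved and 0 reversed. A count was unchanged when it equalled the main count or lay within 1.5-fold of it. A gap was unchanged when it moved by less than the spread within groups. A split within a group widens that spread, so the move of Slc27a2 from 1.35 to 2.48 counted as unchanged. A fitted difference was unchanged when it kept its direction and side of the threshold, whatever its size. The number unchanged is therefore not a measure of how stable the sizes are. With 16 other settings of the fit, none of the genes related to the 5 passed the adjusted threshold. Over all probe sets the count that passed was 0 except when an array was left out: 1 without 8 h replicate 2 at 8 h, between the times and in the F test, and without 20 h replicate 2 it was 8 at 20 h and 1 between the times, so the ranges over arrays left out were 0 to 1 at 8 h, 0 to 8 at 20 h, 0 to 1 between the times and 0 to 1 in the F test. At an unadjusted p of 0.05, limma called 1088 probe sets at 8 h, 648 at 20 h, 401 between the times and 630 in the F test. The gap ranged from 1.35 to 2.48 for Slc27a2, 1.36 to 1.49 for Prss40, 1.49 to 1.59 for Orai1, 2.46 to 2.56 for Cpne5 and 0.28 to 1.77 for Zfp646 as each array was left out. The count of 8 probe sets with 2 levels became 23 at a gap of 1.5, 1 at a gap of 3, 70 with a pseudocount of 1, 4 with a pseudocount of 50 and 222 with the rule added after seeing the data (gap of 1.3, 1 array on a side); leaving out arrays gave 5 to 11, without Cpne5 when 8 h replicate 1 or 20 h replicate 1 was left out. Of the 15 closest genes, 7 were shared with a pseudocount of 50 and 3 when probe sets had to reach a signal of 200, also added after seeing the data. With the replicate number as a block, 0 probe sets passed in any comparison, and 3759, 1919 and 830 had an unadjusted p under 0.05 in the 8 h, 20 h and between-time comparisons; same-numbered arrays did not deviate together (correlations of differences of -0.02, 0.08 and 0.17 over 11552 genes), so they are not taken as pairs. With the day as a block, 0 passed. Quantile normalization moved the median log2 difference of all probe sets from -0.08 to 0.01 at 8 h and from -0.05 to 0.00 at 20 h. It took the zinc finger list at 8 h from 1 above and 7 below untreated to 4 and 4, and the calcium entry list from 7 and 18 to 10 and 15. Signals near the dim end carry no detection call here, so order among them is uncertain.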

Other observations

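Apart from Cpne5, the 8 probe sets with 2 levels under the stricter rule held 2 probe sets of RT1-Bb and 1 of RT1-Db1, chains of class II histocompatibility molecules, 1 of Rab11fip2 and 3 without a gene name. Histocompatibility genes are among the most variable between animals of an outbred stock. RT1-Bb (1371033_at) read 761.1, 716.5 and 9.4 untreated, 1807.0 and 38.2 at 8 h, and 37.0 and 12.7 at 20 h. Its other probe set (1371065_at) read 881.3, 707.4 and 86.9, then 3.1 and 1412.5, then 1210.1 and 1323.6, so 8 h replicate 1 was the highest array on one and the lowest on the other. RT1-Db1 (1370382_at) read 182.9, 160.0 and 15.2, then 494.1 and 18.8, then 23.6 and 19.3, high on the same 3 arrays as the first RT1-Bb probe set. Cd74, the invariant chain that accompanies class II molecules, ranged from 308.3 to 481.3 and had no such step.

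Rab11fip2 (1394607_at), which binds the recycling endosome protein Rab11, was 208.2 in untreated replicate 3, 202.5 and 171.1 at 8 h and 191.3 in 20 h replicate 2, all of day 3, and 28.4 to 29.5 on the arrays of days 1 and 2. Its 2 levels cannot be told apart from the hybridization day.

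Genes chosen after their values were seen lay beyond the neighbours read in the report. Mtch1, a mitochondrial carrier homologue on the same chromosome as Cpne5, read 1686.0, 1733.6 and 1774.3 untreated, 1747.4 and 4276.5 at 8 h, and 1178.2 and 4014.0 at 20 h. It was high on the 2 cadmium arrays on which Cpne5 was low. Its gap was 1.17, above the 0.73 reached by the neighbours read, and 1.73% of probe sets kept had one as large. Prss36, a serine protease gene near Zfp646, read 264.4, 133.4 and 37.8, then 152.7 and 275.1, then 96.1 and 235.3, with its lowest value on the low array of Zfp646. The gap of Prss36 was 1.07, a size reached by 2.57% of probe sets kept.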
